A study of Mus musculus with 4 samples.

Results

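Spermatogonia (SPGs) of the busulfan-alone library were described across all measured genes. The cells came from library B0, 1 of 4 droplet single-cell RNA libraries of mouse seminiferous tubule cells, with every transcript counted once by its molecular tag (unique molecular identifier, UMI). All mice were ICR males, an outbred stock, aged 3 weeks at the start. A0 mice received vehicle, A10 mice alginate oligosaccharides (AOS) by gavage at 10 mg/kg, B0 mice a single injection of busulfan, a DNA-alkylating and crosslinking drug, at 40 mg/kg, and BA10 mice busulfan followed by AOS at 10 mg/kg, and testes were collected about 5 weeks after the injection. Each library was a pool of 6 mice, so animals cannot be told apart, each group was 1 sample, and no test of any difference was possible.

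The 200 SPGs were chosen by measured values. A B0 cell qualified when it held fewer than 40 normalized UMIs of Insl3 per 10000 (Insl3 is a Leydig cell hormone) and at least 1 UMI of 2 or more of the 4 genes Dazl, Uchl1, Sall4 and Dmrt1, and the 200 qualifying cells with the highest mean deposited value (natural log) over these 4 genes were taken. Of 4659 B0 cells, 1424 lay below the Insl3 limit and 317 met both conditions; the whole series held 27060 cells. The mean value was 2.19 at rank 1, 0.870 in the last cell inside and 0.866 in the first cell outside. In the SPGs, 55 cells held 2 of the 4 genes, 115 held 3 and 30 held all 4. Their levels, in UMIs per 1000000 of the summed UMIs (CPM), were 865 for Dazl, 641 for Uchl1, 94.9 for Sall4 and 213 for Dmrt1, against 51.9, 24.7, 0.941 and 6.22 in the 4459 other B0 cells. These 4 values and Insl3 describe the choice and are not results. Dazl was nearly as high in the early spermatocytes of B0 described below, at 765 CPM. The name SPGs follows the rule, and the identity of single cells was not tested.

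Spermatogonia lie on the basement membrane of the seminiferous tubule. A small stem pool, which depends on GDNF from Sertoli cells and carries its receptor pair GFRA1 and RET, gives rise to undifferentiated progenitors with ZBTB16 (PLZF). Retinoic acid turns progenitors into differentiating spermatogonia, which gain KIT, STRA8 and the DNA methyltransferase DNMT3B, divide several times and enter meiosis, where the X and Y chromosomes are silenced.

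The promoters of 7 genes are shown, those of the 5 genes with the highest ratios below (Crabp1, Stra8, Cdca7, Map7d2, Ptcra) and of the rule genes with an entry (Dazl, Uchl1). Each runs from 250 bases before to 50 bases after the RefSeq transcription start on GRCm38.p6, 5′ to 3′ on the strand of the gene. Capitals mark a match to CNCCTCAG, a motif ascribed to STRA8 and MEIOSIN, and none of the 7 held CACGTG, the E-box motif bound by MAX with MYC or MGA.
Dazl, chr17:50293571-50293870, minus strand: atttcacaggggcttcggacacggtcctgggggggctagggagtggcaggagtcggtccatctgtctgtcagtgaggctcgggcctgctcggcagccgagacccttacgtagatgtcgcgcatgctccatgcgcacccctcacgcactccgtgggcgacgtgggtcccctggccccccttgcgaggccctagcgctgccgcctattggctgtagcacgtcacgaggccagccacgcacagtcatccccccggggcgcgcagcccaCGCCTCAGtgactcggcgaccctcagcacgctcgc
Uchl1, chr5:66675871-66676170, plus strand: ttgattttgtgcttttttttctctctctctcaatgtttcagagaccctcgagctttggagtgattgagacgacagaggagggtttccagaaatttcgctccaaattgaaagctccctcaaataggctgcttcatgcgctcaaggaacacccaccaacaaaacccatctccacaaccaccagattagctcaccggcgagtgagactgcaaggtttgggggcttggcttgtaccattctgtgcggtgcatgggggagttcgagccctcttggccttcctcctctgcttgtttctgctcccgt
Crabp1, chr9:54764498-54764797, plus strand: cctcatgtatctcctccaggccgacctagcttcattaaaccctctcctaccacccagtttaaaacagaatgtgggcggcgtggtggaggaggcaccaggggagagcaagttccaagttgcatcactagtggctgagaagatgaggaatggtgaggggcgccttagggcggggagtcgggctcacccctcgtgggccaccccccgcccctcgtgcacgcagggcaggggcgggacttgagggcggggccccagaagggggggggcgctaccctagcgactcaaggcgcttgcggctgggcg
Stra8, chr6:34920698-34920997, plus strand: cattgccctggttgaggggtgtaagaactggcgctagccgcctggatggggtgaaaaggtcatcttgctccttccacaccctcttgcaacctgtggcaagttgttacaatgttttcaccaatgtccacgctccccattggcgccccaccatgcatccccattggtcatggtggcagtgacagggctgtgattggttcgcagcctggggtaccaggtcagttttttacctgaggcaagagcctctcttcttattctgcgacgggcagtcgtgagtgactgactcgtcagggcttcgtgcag
Cdca7, chr2:72475969-72476268, plus strand: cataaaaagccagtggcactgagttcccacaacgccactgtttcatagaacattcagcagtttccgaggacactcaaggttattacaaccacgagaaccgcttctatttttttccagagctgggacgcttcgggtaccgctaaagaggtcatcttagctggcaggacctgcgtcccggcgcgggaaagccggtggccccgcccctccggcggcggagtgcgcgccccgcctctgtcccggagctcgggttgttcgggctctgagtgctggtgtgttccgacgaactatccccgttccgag
Map7d2, chrX:159414322-159414621, plus strand: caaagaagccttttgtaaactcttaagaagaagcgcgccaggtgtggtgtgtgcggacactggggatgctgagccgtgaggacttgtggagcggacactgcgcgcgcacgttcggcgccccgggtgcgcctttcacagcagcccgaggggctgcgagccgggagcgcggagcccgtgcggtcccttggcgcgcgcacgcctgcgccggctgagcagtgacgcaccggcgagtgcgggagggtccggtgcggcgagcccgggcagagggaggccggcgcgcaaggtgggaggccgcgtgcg
Ptcra, chr17:46763663-46763962, minus strand: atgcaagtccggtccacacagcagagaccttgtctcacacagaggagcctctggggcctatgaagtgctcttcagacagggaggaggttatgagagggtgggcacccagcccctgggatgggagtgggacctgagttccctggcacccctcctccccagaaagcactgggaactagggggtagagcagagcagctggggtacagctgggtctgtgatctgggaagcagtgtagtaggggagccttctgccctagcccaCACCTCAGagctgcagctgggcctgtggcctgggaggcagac
In Dazl the match covered positions 266 to 273 and in Ptcra positions 259 to 266, so both lay in the first transcribed bases, while the other 5 promoters held neither motif in this window. Both motifs were searched on both strands. Of 13761 promoters with a gene in the table, 9.06% held CNCCTCAG and 8.99% held CACGTG. Sall4 and Dmrt1 had no entry.

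B0 was the shallowest library, with a median of 4214 UMIs per cell against 10948 to 17989 in the others, and each library began at its own lowest UMI count (7687 in A0, 6716 in A10, 2985 in B0, 9013 in BA10). The 200 SPGs held 874718 UMIs, 2998 to 11785 per cell (median 4207.5), with a median of 2210.5 genes per cell; the other B0 cells held a median of 4214 UMIs and 1905 genes. Pairs of libraries shared 31 to 135 cell barcodes. All intervals below are exact, at 95%, and cover counting error only.

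The SPGs were set against the other B0 cells to show what the chosen cells carried beyond the rule. Genes entered at 2 CPM or more over all B0 cells, and higher or lower means at least 2-fold with 1 CPM added to both levels. Of 13032 genes, 2960 (22.7%) were higher and 3567 (27.4%) lower, with a median log2 ratio of 0.005. These shares are the background for every list below. For lists set against early spermatocytes, described below, the background is 24.1% higher and 16.8% lower of 8834 genes. Most of the other cells carried Leydig cell transcripts, and 118 of the 2960 higher genes reached the entry level through the SPGs alone (under 2 CPM in the other cells). In turn, 1238 of the 13032 genes were under 2 CPM in the SPGs and entered through the other cells. Such levels are below the 3.43 CPM that 0 counts allow in SPGs, so lower genes near this level are uncertain. The plot of gene lists gives the ratios gene by gene.

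**Figure D1:**
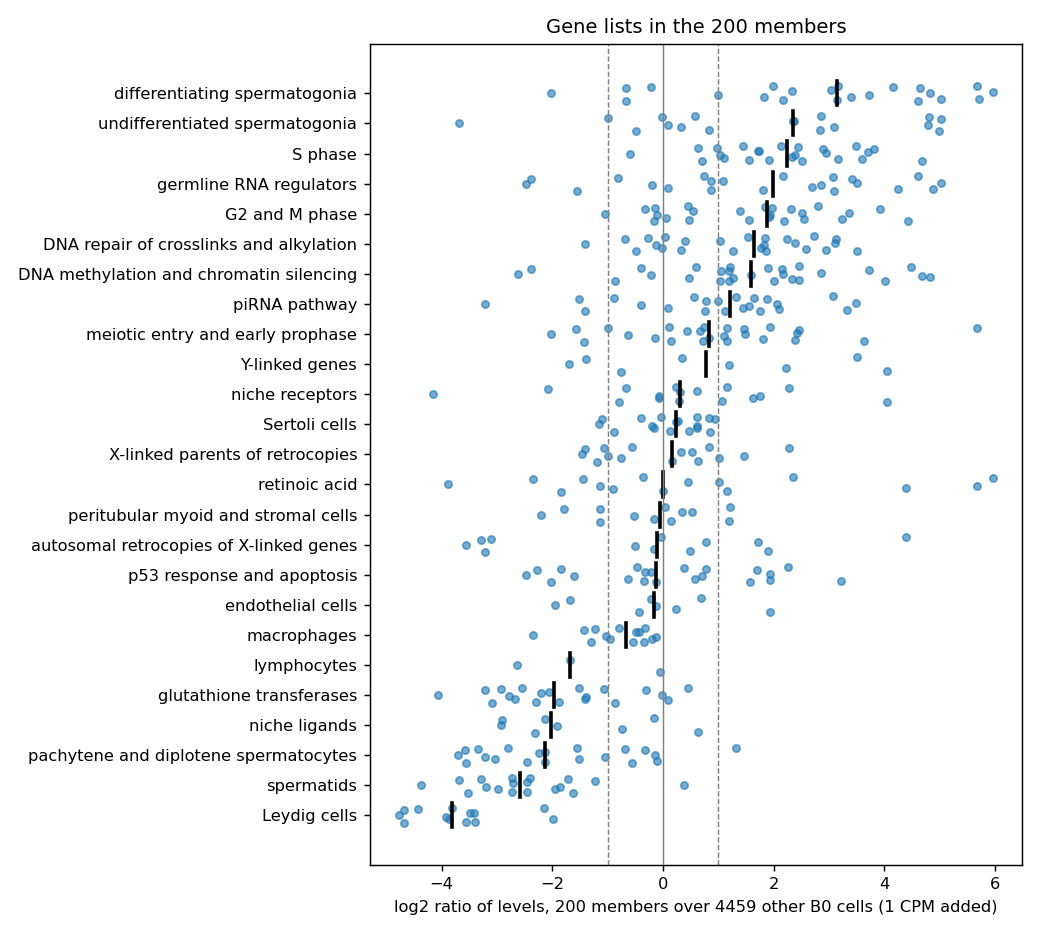
Each point is 1 gene of a list, placed by its log2 ratio of levels, 200 SPGs (called members in the plot) over the 4459 other B0 cells with 1 CPM added, and the black bar is the median of the list; dashed lines mark 2-fold. Differentiating and undifferentiated spermatogonial lists lie highest by median (3.15 and 2.35) and the Leydig cell list lowest (median −3.81).

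Genes of differentiating spermatogonia were higher in the SPGs, with the highest median of the lists. Of 25 such genes in the table, 22 entered, of which 18 were higher and 1 lower, with a median log2 ratio of 3.15. Only 1 of the 18 entered through the SPGs alone. Their summed level was 4146 CPM against 1689 CPM (log2 1.30), a smaller ratio of sums than for S phase genes (2.04), silencing genes (1.91) or G2 and M genes (1.52). Stra8, which is induced by retinoic acid ahead of meiosis, stood at 575 CPM (interval 526 to 628) against 10.3 CPM, 56.0-fold higher (48.0 to 65.4). Crabp1, a cytoplasmic retinoic acid binding protein, stood at 230 CPM against 2.70 CPM, 85.1-fold higher (64.2 to 114). Sohlh1, a transcription factor needed for spermatogonial differentiation, stood at 171 CPM against 2.29 CPM, 74.9-fold higher (54.7 to 104). These 3 genes were also rare in the early spermatocytes (SPCs) of the same library, described below, at 40.1, 6.38 and 10.0 CPM. Dnmt3b was at 106 CPM against 2.78 CPM (38.2-fold, 27.7 to 53.1) and Lmo1, a LIM-only transcriptional regulator, at 203 CPM against 5.28 CPM (38.6-fold, 30.6 to 48.8). The D-type cyclins Ccnd2 (141 against 35.0 CPM) and Ccnd1 (105 against 11.0 CPM) were also higher. The 1 lower gene was Dmrtb1, a factor of the switch from mitosis to meiosis, at 75.5 against 308 CPM. Kit, the receptor for stem cell factor that Leydig cells also carry, stood at 64.0 CPM in SPGs and 102 CPM in the other cells, 1.59-fold lower (1.22 to 2.11), and at 8.20 CPM in early SPCs.

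Undifferentiated-type genes were present at lower levels, and genes of the stem pool in few cells. Of 27 genes in the table, 17 entered. Of these, 9 were higher and 1 lower, with a median log2 ratio of 2.35. Egr4, Lin28a and Sox3 were 3 of the 9 and entered through the SPGs alone (under 2 CPM in the other cells). They had to be high in SPGs, so their ratios below only describe them. Zbtb16 was at 146 CPM against 27.6 CPM, 5.31-fold higher (4.36 to 6.42), but the other cells were uneven, with 44.3 CPM at or above the Insl3 limit and 5.75 CPM below it. Egr4 (68.6 against 1.51 CPM), Pou3f1 (84.6 against 2.05 CPM) and Lin28a (50.3 against 0.573 CPM), transcription factors and an RNA-binding protein of progenitors, were 45.3-fold (29.6 to 70.2), 41.4-fold (28.5 to 60.5) and 87.8-fold (47.2 to 174) higher. Sox3, an X-linked factor of committed progenitors, was at 52.6 against 0.695 CPM, and Foxo1 at 110 against 14.6 CPM. The stem-pool receptors were close to the detection limit. Gfra1 gave 8 UMIs in 7 SPGs (9.15 CPM, interval 3.95 to 18) and Ret 12 UMIs in 5.0% of SPGs (13.7 CPM), both below the entry level. In total, 16 SPGs held a UMI of either receptor, and 11 of those 16 also held Stra8, beside 156 of all 200 SPGs. Id4, a helix-loop-helix protein of stem cells, was at 27.4 CPM in SPGs and 25.5 CPM in the other cells (ratio 1.08, 0.684 to 1.61) but at 150 CPM in early SPCs. Lhx1 and Eomes had no UMI in any SPG, which allows up to 3.43 CPM. The 1 lower gene was Tspan8, a tetraspanin, at 8.0 against 116 CPM.

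Shares of cells were compared after every cell was thinned to 2900 UMIs, because a share rises with depth. Stra8 was then detected in 70.5% of SPGs (63.7 to 76.7), in 6.0% of early SPCs and in 0.556% of the 3235 B0 cells at or above the Insl3 limit, a set that should lack most germ cell transcripts (median 4053 UMIs before thinning). Crabp1 was detected in 42.0%, 1.50% and 0.278% of the 3 sets, Sohlh1 in 37.5%, 2.0% and 0.216%, and Dnmt3b in 27.5%, 2.50% and 0.495%. Zbtb16 was detected in 30.5% of SPGs (24.2 to 37.4) and 12.4% of the Insl3-high cells. Kit was detected in 18.5% of SPGs, 3.0% of early SPCs and 36.9% of the Insl3-high cells, which are no background for Kit since Leydig cells carry it. Gfra1 was found in 3.00% of SPGs (1.11 to 6.42) and Ret in 3.50%. The plot of stage genes at equal depth shows Stra8, Crabp1, Sohlh1 and Dnmt3b in many SPGs and few early SPCs, and Gfra1 and Ret in few SPGs. Hormad1 and Hspa2 were in more early SPCs than SPGs.

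**Figure D2:**
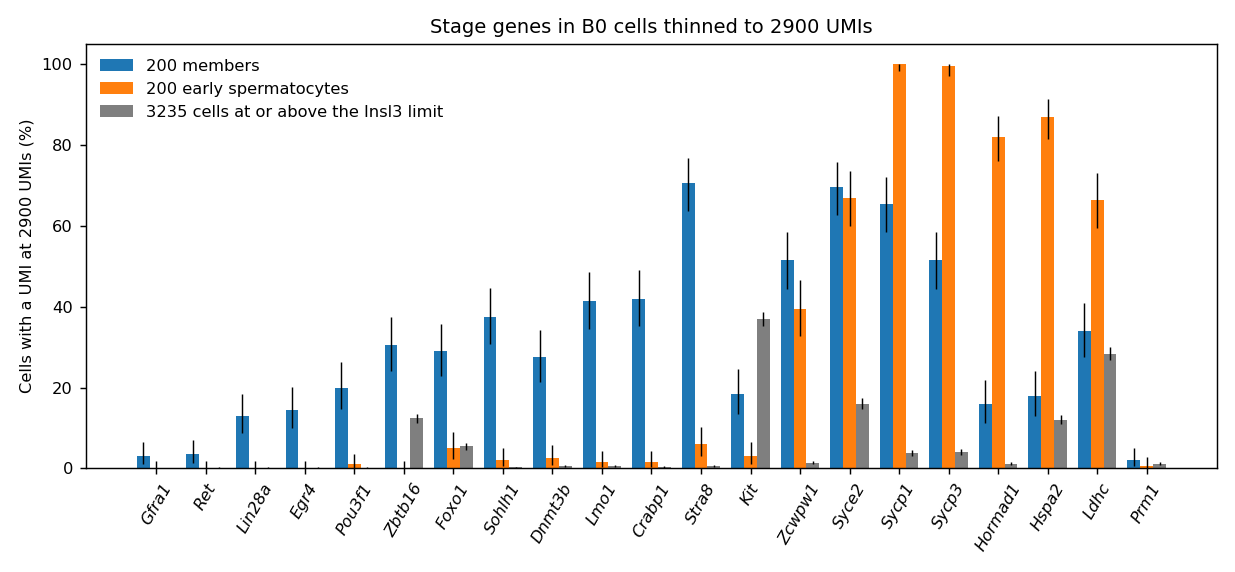
Bars give the percent of cells with at least 1 UMI of each stage gene after thinning to 2900 UMIs in the 200 SPGs (blue, called members), 200 early spermatocytes (orange) and 3235 B0 cells at or above the Insl3 limit (grey); black lines are exact 95% binomial intervals for counting error. Stra8 reaches 70.5% in SPGs and 6.0% in early spermatocytes, while Hspa2 reaches 18% and 87%.

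Stage genes overlapped within single cells. Without thinning, Stra8 was detected in 156 of 200 SPGs. Of these, 61 also held Zbtb16, 97 held Crabp1, 120 held Sycp1 and 41 held Kit, while 22 SPGs held Zbtb16 without Stra8 and 22 held neither. These counts move with the depth of each cell, and no association is read from them. Per cell at 2900 UMIs, the median SPG held 8 of 25 differentiating genes, 2 of 27 undifferentiated genes, 5 of 27 early prophase genes and 2 of 20 pachytene genes. The median early SPC held 2, 1, 9 and 6 of the same lists, and the median other B0 cell 2, 1, 1 and 1.

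Early meiotic transcripts were present in the SPGs, most of them at levels below those of early SPCs. Of 31 genes of meiotic entry and early prophase in the table, 25 entered. Of these, 12 were higher and 3 lower than in the other cells, with a median log2 ratio of 0.83. Stra8, which is also on the list of differentiating genes, was 1 of the 12. Against only the other B0 cells below the Insl3 limit the median turned to −0.20. Syce2, a protein of the synaptonemal complex that joins paired chromosomes, was at 500 CPM against 92.8 CPM (5.38-fold higher, 4.85 to 5.96), and Zcwpw1, a reader of the histone marks made by PRDM9, at 219 against 16.8 CPM (13.1-fold, 10.9 to 15.5). Both were slightly lower in early SPCs (372 and 178 CPM). Sycp1 and Sycp3, the central and axial proteins of that complex, were at 479 and 402 CPM in SPGs, 223 and 226 CPM in the other cells and 3278 and 2482 CPM in early SPCs, which were chosen partly by these genes. The 3 lower genes of the list were Spo11, Psmc3ip and Msh5. Spo11, which makes meiotic DNA breaks, was at 5.72 against 17.0 CPM in the other cells, Psmc3ip, a cofactor of strand exchange, at 99.5 against 297 CPM, and Msh5 at 0 against 3.07 CPM, a difference that could not be shown at this depth, since 0 counts allow 3.43 CPM.

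Transcripts of later germ cells were lower in the SPGs. Of 20 pachytene and diplotene genes, 14 were lower and 1 (Tdrd5, a piRNA factor) higher, with a median log2 ratio of −2.13. Ldhc, the lactate dehydrogenase of spermatocytes and sperm, was at 231 CPM against 2359 CPM, 10.2-fold lower (8.90 to 11.8), but after thinning it was detected in 34.0% of SPGs and in 28.4% of the Insl3-high cells. Piwil1 was at 30.9 against 90.2 CPM and Hspa2, a chaperone of spermatocytes, at 88.0 against 418 CPM. Of the 18 spermatid genes that entered, 17 were lower (median −2.58), and Prm1, a protamine, was at 9.15 against 35.9 CPM. Both directions rested on the choice of 200 cells: with every one of the 317 qualifying cells the medians were 0.33 for the pachytene and 0.23 for the spermatid list, and with at least 3 of the 4 rule genes required they were −0.47 and −0.02.

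Levels were also laid out along the rank of the 317 qualifying cells, which is the mean of the rule genes itself and depends on depth, so the order is a description of the choice. In ranks 1 to 50, 51 to 100, 101 to 150 and 151 to 200, Stra8 stood at 637, 657, 553 and 455 CPM, and outside the 200 at 296 CPM (ranks 201 to 250) and 40 CPM (ranks 251 to 317). Crabp1 stood at 280, 224, 238 and 178 CPM inside, then at 97.2 and 5.13 CPM. The drop in these genes thus lay mostly beyond rank 200. Zbtb16 stood at 170, 158, 175 and 82.0 CPM inside, then at 64.8 and 10.3 CPM, and Dnmt3b at 156, 97.9, 103 and 68.3 CPM, then at 44.6 and 2.05 CPM, so that for these genes more of the drop in CPM lay inside the 200. Sycp1 ran the other way up to rank 250, with 298, 363, 513, 738 and 1252 CPM, and was at 616 CPM in the last 67 cells. Meig1, a sperm and spermatocyte gene chosen after its values were seen, stood at 211, 210, 301 and 833 CPM inside and at 1366 and 7354 CPM outside. Ldhc stood at 124, 154, 175 and 469 CPM inside and at 693 and 5558 CPM outside. Summed over the last 67 cells, genes of later germ cells were thus high and those of the 200 low. These 67 cells held a median of 10050 UMIs against 4169.5 to 4356.5 in the 5 other groups, and deep cells weigh most in such sums. Stra8 was still detected in 14 of the 67 and Hells in 32. Defb19, a Sertoli cell defensin, was also higher in ranks 151 to 200 (2942 CPM) than in ranks 1 to 150 (1403 to 1849 CPM), and its part in the order was not tested.

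**Figure D3:**
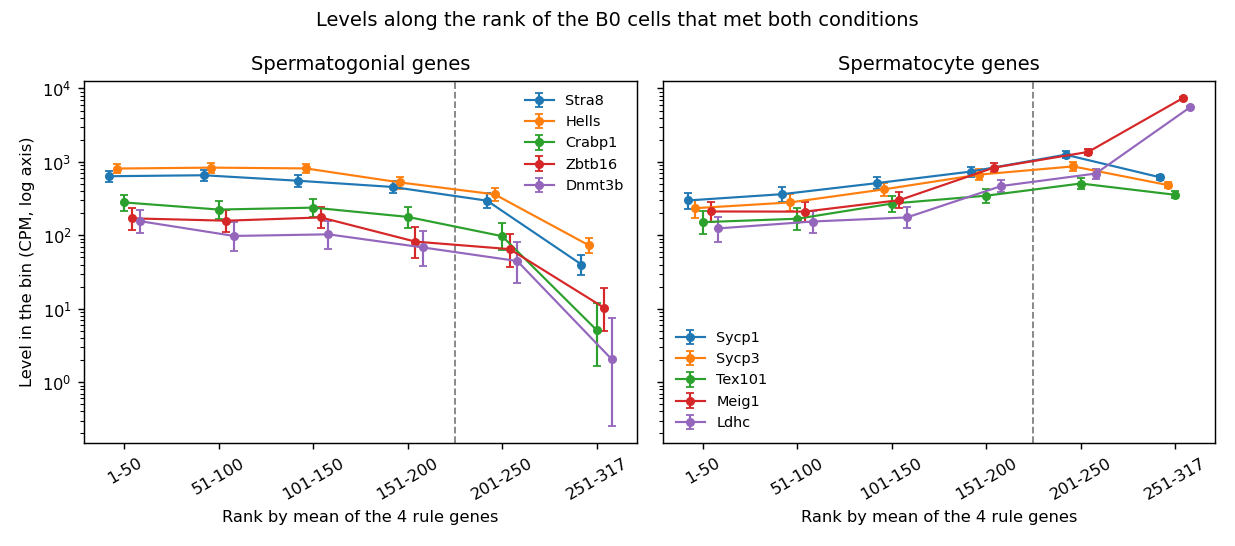
Levels (CPM, log axis) of 5 spermatogonial genes (left) and 5 spermatocyte genes (right) in 6 groups of the 317 B0 cells that met both conditions, ordered by the mean of the 4 rule genes; bars are exact 95% Poisson intervals for counting error and the dashed line marks rank 200. Stra8 stays between 455 and 657 CPM inside rank 200 and is at 40 CPM in ranks 251 to 317, where Ldhc reaches 5558 CPM.

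Somatic transcripts were found in nearly every SPG. The 13 Leydig cell genes without Insl3 summed to 1938 CPM in SPGs, 24173 CPM in the other cells and 1462 CPM in early SPCs; all 13 were lower in SPGs than in the other cells (median −3.81) and none was at 0. Cyp17a1 and Cyp11a1, enzymes of androgen synthesis, were at 191 and 161 CPM in SPGs against 4121 and 1697 CPM. Against the other cells below the Insl3 limit, the median of the list was −0.11. The 18 Sertoli cell genes summed to 6615 CPM in SPGs, 7159 CPM in the other cells and 4809 CPM in early SPCs; 0 of the 17 that entered were higher and 2 were lower, and none of the 18 was at 0. Their median log2 ratio was 0.24, opposite in sign to that of the sums (−0.11), and it turned to −0.33 with at least 3 of the 4 rule genes required. Defb19 was detected in 98.0% of SPGs and 99.4% of the other cells at 1934 and 2229 CPM, and thinned in 94.0% of SPGs and 99.2% of the Insl3-high cells, a share in SPGs no higher than in cells that should lack the gene, so it is not read as expression in SPGs. The factor Sox9 was at 37.7 against 31.0 CPM and the FSH receptor Fshr at 3.43 against 1.88 CPM. The 14 macrophage genes summed to 1347 CPM against 2858 CPM, with 0 higher, 5 lower and none at 0 (median −0.67). The 14 peritubular and stromal genes summed to 446 against 472 CPM, with 2 higher, 4 lower and 2 at 0 (median −0.06, or −0.01 with the gene at 0 UMIs set to its bound). Endothelial genes summed to 113 against 99.9 CPM (1 of 8 higher, 2 lower, median −0.17), with Pecam1 at 0, and lymphocyte genes to 5.72 against 14.3 CPM (2 of 3 lower, median −1.68, or −0.61 at the bounds), with Cd3d, Cd3e and Cd3g at 0. Whether these transcripts came from free RNA, doublets or the cells themselves was not tested.

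Cell cycle genes were higher in the SPGs, for S phase and for G2 and M. Of 24 S phase genes, 20 were higher and 0 lower, with a median log2 ratio of 2.24. Mcm6 and Mcm2, subunits of the replicative helicase, were at 139 and 115 CPM against 8.92 and 9.37 CPM, 15.6-fold (12.4 to 19.6) and 12.3-fold (9.66 to 15.6) higher. Hells, a chromatin remodeller needed for DNA methylation at repeats, was at 745 against 28.0 CPM (26.6-fold, 23.9 to 29.7) and, thinned, in 79.0% of SPGs, 42.0% of early SPCs and 2.50% of the Insl3-high cells. Of 24 G2 and M genes, 15 were higher and 1 lower (median 1.88). The mitotic cyclin Ccna2 was at 101 CPM against 3.72 CPM in the other cells and 5.47 CPM in early SPCs, 27.0-fold (19.9 to 36.6) and 18.4-fold (8.12 to 51.5) higher. Mki67 was at 162 against 9.69 CPM, and Aurka, the 1 lower gene, at 60.6 against 127 CPM. Against early SPCs, 11 of 23 S phase genes were higher and 1 lower (median 0.83), beside 24.1% higher of all 8834 genes, and 4 of the 11 were under the entry level of 10 CPM in early SPCs and entered only through the SPGs. Of 24 G2 and M genes 8 were higher, 2 of them in that way, and 4 lower (median 0.47), and their sum was lower in SPGs, at 4877 against 6110 CPM (log2 −0.33). No phase was called for single cells.

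The 15 genes with the highest ratios among those at 10 CPM or more over B0 were Crabp1, Stra8, Cdca7, Map7d2, Ptcra, Lmo1, Hist1h2ao, Clspn, Cenpa, Hells, Usp26, Taf7l, Siah1b, Mki67 and Zrsr2. Of these, 9 were under 10 CPM in the other cells and so entered only through the SPGs, where they had to be high. Their ratios ran from 15.6-fold (Zrsr2, 450 against 28.8 CPM) to 85.1-fold (Crabp1). Cdca7, the partner of HELLS, was at 203 against 3.19 CPM, 63.8-fold higher (48.6 to 84.3). Cenpa, the centromeric histone, was at 314 against 10.5 CPM and Clspn, a replication checkpoint adaptor, at 183 against 5.69 CPM. The histone gene Hist1h2ao (854 against 28.3 CPM) belongs to a family of near-identical copies, so its level is uncertain. The X-linked genes among them were Map7d2 (248 against 5.28 CPM), Usp26 (257 against 9.33), Taf7l (255 against 11.1), Siah1b (134 against 6.63) and Zrsr2, of which Map7d2, Usp26 and Siah1b entered in this way. Ptcra, the pre-T-cell receptor alpha chain, was at 384 against 9.24 CPM but was uneven. Of its 336 UMIs, 104, 63 and 62 lay in 3 cells (68.2%), and it was detected in 19.0% of SPGs. The lymphocyte markers Cd3d, Cd3e and Cd3g were at 0 in SPGs.

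The 10 genes with the lowest ratios were 4933402J07Rik, Pon3, Glb1l2, C1qtnf3, Gm3417, Gsg1, Gstt4, Fsip2, Chl1 and Cfap44. Of these, 6 had no UMI in any SPG, and against the 3.43 CPM that 0 counts allow their levels were at least 8.29-fold (Cfap44) to 10.6-fold (4933402J07Rik) lower. Pon3, a paraoxonase, gave 2 UMIs in SPGs (2.29 against 116 CPM, 50.9-fold lower, 14.1 to 420). The germ cell gene Gsg1 also gave 2 UMIs (2.29 against 105 CPM, 46.0-fold, 12.7 to 380).

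Against the other cells, genes for DNA repair were higher as a list, while the p53 list was mixed. Busulfan alkylates and crosslinks DNA, and the list held repair genes for both lesions. Of 24 that entered, 15 were higher and 1 lower (median 1.65), and against early SPCs 8 of 21 were higher and 2 lower (median 0.58), but 5 of these 8 were under the entry level of 10 CPM in early SPCs and entered only through the SPGs, so no change against early SPCs is read from this list (24.1% of all genes were higher). Brca2, a factor of homologous recombination, was at 102 against 18.6 CPM. Atm and Chek1, checkpoint kinases, were at 91.5 and 34.3 CPM against 13.0 and 3.07 CPM. Genes that act directly on alkylated bases were not among those higher: Mgmt was at 32.0 against 38.8 CPM and Mpg at 61.7 against 100 CPM. Of 21 p53 response and apoptosis genes, 6 were higher, 1 of them entering only through the SPGs, and 5 lower (median −0.13, sum 0.46). Against only the other cells below the Insl3 limit, the median was 0.80, and against early SPCs 7 of 13 genes were higher, 2 of them entering only through the SPGs, and 2 lower (median 1.10, sum 0.78). Bax, a pore-forming inducer of apoptosis, was at 408 CPM against 136 CPM, 3.00-fold higher (2.68 to 3.35), and at 101 CPM in early SPCs. Bcl2l11 (BIM) was at 42.3 against 8.02 CPM and Aen, an apoptosis nuclease, at 93.7 against 28.1 CPM. Cdkn1a (p21), which halts the cycle, was at 34.3 against 143 CPM, 4.18-fold lower (2.92 to 6.21), and at 15.5 CPM in early SPCs. Glutathione transferases, which conjugate busulfan in the liver, were lower in SPGs for 15 of 20 genes and higher for 0 (median −1.97). Gstm1 was at 793 against 6706 CPM (8.45-fold lower, 7.85 to 9.12), close to the 627 CPM of early SPCs, and against other cells below the Insl3 limit the median of the list was −0.20.

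Ligand genes of the niche were lower and some receptor genes higher in SPGs than in the other cells. Of 8 ligand genes that entered, 5 were lower in SPGs and 0 higher (median −2.02), among them Cxcl12 (21.7 against 172 CPM), Wnt6 (22.9 against 177) and Kitl (17.1 against 67.9), the ligand of KIT. Gdnf gave 1 UMI in SPGs and was below the entry level. Of 16 receptor genes, 6 were higher and 2 lower (median 0.30); the activin receptor Acvr2b was at 96.0 against 4.91 CPM (19.6-fold, 14.6 to 26.1), Epcam, an epithelial adhesion protein, at 157 against 31.4 CPM, and Itga6, a laminin receptor of spermatogonia, at 24.0 against 7.08 CPM. Against early SPCs 8 of 10 receptor genes were higher (median 2.31), beside 24.1% of all 8834 genes. Of the 8, 3 entered only through the SPGs (under 10 CPM in early SPCs). In the same comparison 0 of 5 ligand genes were higher or lower (median −0.25, sum 0.05). Retinoic acid genes were mixed, with 6 of 15 higher and 5 lower (median 0.01, sum −1.70). Against early SPCs 3 of 9 were higher, 1 of them entering only through the SPGs, and 0 lower, and the sum had the opposite sign (median 0.76, sum 1.70, 1423 against 438 CPM). Rarg, the receptor of undifferentiated spermatogonia, was at 16.0 against 2.33 CPM, and Rbp4, a retinol carrier, at 58.3 against 1.80 CPM (32.4-fold, 21.2 to 49.6). Of the 6 genes higher than in the other cells, Rbp4 was the 1 that entered only through the SPGs (under 2 CPM in the other cells), where it had to be high. Aldh1a1, which makes retinoic acid and is strong in Leydig cells, was at 286 against 4225 CPM, 14.8-fold lower (13.1 to 16.8).

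Genes for silencing and for germline RNA were higher in SPGs than in the other cells. Of 27 genes of DNA methylation and chromatin silencing, 20 were higher and 2 lower (median 1.59). Against early SPCs the median was 1.31, with 13 of 25 higher, 4 of them entering only through the SPGs. Another 4 were lower, 1 of them entering only through early SPCs. The maintenance methyltransferase Dnmt1 was at 256 against 18.5 CPM, 13.9-fold higher (11.7 to 16.3), and at 27.3 CPM in early SPCs. Scml2, an X-linked Polycomb protein of the germline, was at 139 against 5.24 CPM, and Morc1, a repressor of transposons, at 30.9 against 0.982 CPM. Of the 20 genes higher than in the other cells, Morc1 was the 1 that entered only through the SPGs (under 2 CPM in the other cells). Dnmt3l, the partner of DNMT3A in the fetal germline, had no UMI in SPGs, which allows 3.43 CPM, against 4.21 CPM in the other cells, so a difference could not be shown at this depth. Of 22 piRNA genes, 12 were higher and 3 lower (median 1.22). Fkbp6, a cochaperone of piRNA loading, was at 489 against 42.5 CPM (11.5-fold, 10.3 to 12.9), and Piwil2 at 82.3 against 18.6 CPM. Against early SPCs the piRNA list was lower, with 14 of 21 genes lower and 1 higher (median −1.28), beside 16.8% lower and 24.1% higher of all 8834 genes. The 1 higher gene entered only through the SPGs, and 1 of the 14 lower genes only through early SPCs. Among 22 other germline RNA regulators 13 were higher, 2 of them entering only through the SPGs (under 2 CPM in the other cells), and 3 lower. Their median log2 ratio was 1.98, but their summed level was 2706 against 2119 CPM (log2 0.35). Tex19.1, a suppressor of retrotransposons, was at 157 against 4.34 CPM (36.1-fold, 27.8 to 47.0). Against early SPCs 8 of 21 of these regulators were higher, 4 of them entering only through the SPGs, and 7 lower, with a median of 0.19 and a lower sum in SPGs (2706 against 5708 CPM, log2 −1.08).

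The SPGs were next compared with early SPCs of B0, a set of meiotic germ cells from the same library. The early SPCs were the 200 cells with the highest mean of Sycp1, Sycp3, Dmc1 and Meiob among 589 non-members below the Insl3 limit with at least 2 of these genes. Genes entered at 10 CPM or more over both sets, and the rule genes of both were left out. Of 8834 genes, 2129 (24.1%) were higher in SPGs and 1486 (16.8%) lower, with a median log2 ratio of 0.20, to which the ratios are to be read. Early SPCs held a median of 4427.5 UMIs. The word early refers to the genes that chose these cells, and their stage was not tested. They also carried later genes, with 5304 CPM for the pachytene and diplotene list against 981 CPM in SPGs. Ldhc stood at 1419 CPM in early SPCs and was detected in 77.0% of them without thinning. The comparison is thus not read as one with cells of early prophase alone. Differentiating genes were higher in SPGs for 18 of 24 and lower for 2 (median 3.20), and undifferentiated genes for 10 of 12, with 1 lower (median 2.63). Of those higher, 11 of the 18 and 7 of the 10 were under 10 CPM in early SPCs and so entered only through the SPGs, where they had to differ, and nothing is read from these counts. Early prophase genes were lower for 15 of 22, 4 of them entering only through early SPCs, and higher for 1 (median −1.76). That 1 was Stra8, which is also on the list of differentiating genes. Pachytene genes were lower for 10 of 16, 2 of them entering only through early SPCs, and higher for 1 (median −1.54).

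Of the 10 genes highest over early SPCs, 8 had no UMI in early SPCs, and all 10 were under the entry level of 10 CPM there and so entered only through the SPGs. Rasd2, a small GTPase, was at 74.3 CPM in SPGs, at least 27.2-fold higher than the 2.73 CPM that 0 counts allow there. Lin28a was at least 18.4-fold higher, Bhlhe41 at least 15.5-fold, Foxr1 and Xlr5a at least 14.6-fold, Panx1 at least 14.2-fold and Mybl2 at least 13.8-fold. Pla2g4b was at least 38.0-fold higher, but 45 and 44 of its 91 UMIs lay in 2 cells. Lmo1 (203 against 3.65 CPM) was 55.8-fold higher (21.4 to 207) and Zbtb16 (146 against 2.73 CPM) 53.5-fold (17.9 to 263). The 10 lowest were Fam181a, 1700006A11Rik, Gm1096, Spdye4b, Fsip2, Cd177, Elfn2, Dnah7c, Ptprm and BC049730. Fam181a had no UMI in SPGs and 86.6 CPM in early SPCs (at least 25.3-fold lower). Elfn2 was at 11.4 against 413 CPM, 36.1-fold lower (19.5 to 75.8).

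The X-linked share of UMIs was higher in the SPGs than in the early SPCs, although single cells of the sets overlapped. X-linked genes (756 in the table) took 2.17% of the UMIs of SPGs (2.14 to 2.2) and 0.907% of those of early SPCs (0.889 to 0.924). Per cell, the median was 2.11% (quartiles 1.92 and 2.43) in SPGs, 0.812% (0.492 and 1.46) in early SPCs and 2.75% in the other B0 cells. Most SPGs thus lay above most early SPCs and below most other cells, as the histogram shows. Early SPCs also carried pachytene genes, as given above, and the part of later spermatocytes in their X-linked share was not tested. Over summed UMIs the other cells were at 2.12% (2.11 to 2.12), slightly below the SPGs, so the order of these sets was the opposite of that by median cell. Among X-linked genes that have an autosomal retrocopy, 11 of 13 were higher in SPGs than in early SPCs and 0 lower (median 1.88), and 4 of the 11 were under 10 CPM in early SPCs and so entered only through the SPGs. The ribosomal protein gene Rpl36a was at 1099 against 175 CPM (6.28-fold, 5.37 to 7.37), and Taf1, a subunit of general factor TFIID, at 129 against 19 CPM (6.75-fold, 4.21 to 11.3). The retrocopies were mixed, with 2 of 10 higher and 4 lower (median −0.69), 1 of the 4 entering only through early SPCs. Pdha2, the testis form of a pyruvate dehydrogenase subunit, was at 6.86 against 167 CPM in early SPCs. The same lists against the other B0 cells gave 3 of 15 X-linked parents higher and 4 lower (median 0.17, sum −0.41) and 3 of 12 retrocopies higher and 4 lower (median −0.10). Of 8 Y-linked genes 4 were higher than in the other cells and 2 lower (median 0.77). Against early SPCs 4 of 5 were higher and 0 lower (median 2.22), but 2 of these 4 entered only through the SPGs. Uba1y, a Y-linked ubiquitin-activating enzyme of spermatogonia, was at 115 CPM against 6.05 CPM (19-fold, 14.7 to 24.7) and 13.7 CPM in early SPCs, and Usp9y at 37.7 against 2.41 CPM. Ddx3y, which somatic cells also use, was at 29.7 against 79.3 CPM.

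**Figure D4:**
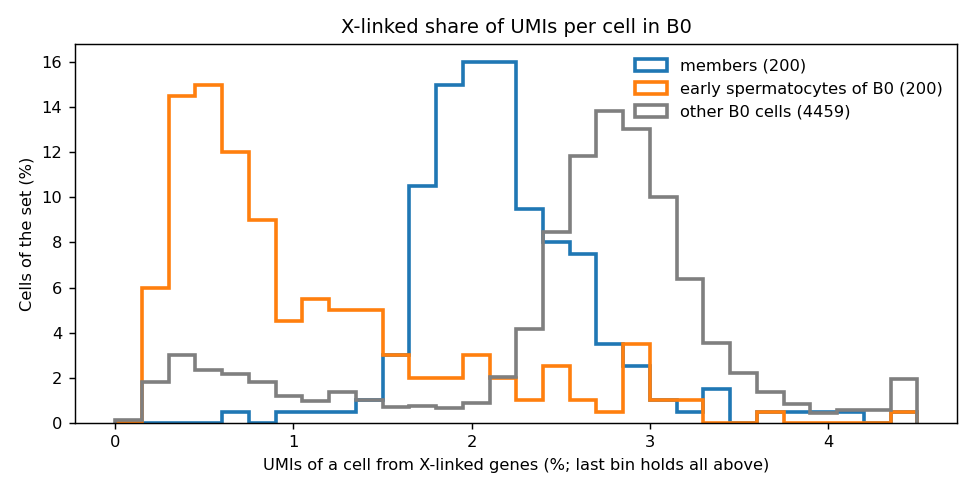
Percent of the UMIs of a cell that came from X-linked genes (horizontal axis, last bin holding all higher values) against the percent of the cells of each set (vertical axis), for the 200 SPGs (called members), 200 early spermatocytes and 4459 other B0 cells. The medians per cell are 2.11%, 0.812% and 2.75%.

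By rank, the X-linked share was 2.07%, 2.09%, 2.19% and 2.33% of UMIs from ranks 1 to 50 to ranks 151 to 200, 2.17% in ranks 201 to 250 and 0.876% in ranks 251 to 317. Defb19 was higher in ranks 151 to 250 than in ranks 1 to 150, and the part of Sertoli cell RNA in the X-linked share was not tested.

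Promoters of the genes higher in SPGs were compared by the same 2 motifs. A promoter was found for 10028 of the 13032 genes, of which 10.2% held CACGTG (9.60 to 10.8). The motif was in 13.1% (11.7 to 14.5) of the 2298 promoters of genes at least 2-fold higher in SPGs, 10.5% of those within 2-fold and 6.97% (6.03 to 8.01) of the 2640 at least 2-fold lower. In the same 3 sets CNCCTCAG was in 10.1%, 8.92% and 8.98%. The median ratio of observed to expected CpG was 0.832, 0.780 and 0.540, so the CpG ratio was highest in the promoters of genes at least 2-fold higher. In the 192 promoters of genes at least 8-fold higher the CpG ratio was 0.733, below the 0.754 of all 10028, while CACGTG was in 14.1% (9.48 to 19.8). The part of CpG content in the motif share was not tested.

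The same conditions were applied to the other libraries to ask whether such cells were found there. In A0, 327 cells met them (3.66%, 3.28 to 4.07), in A10 237 (2.45%, 2.15 to 2.78), in B0 317 (6.80%, 6.10 to 7.57) and in BA10 391 (10.3%, 9.40 to 11.4). Most of these cells outside B0 were unlike the SPGs. Stra8 was detected in 12.8% of them in A0, 8.86% in A10 and 22.0% in BA10, against 78.0% of SPGs. Their median X-linked share per cell was 1.12%, 1.02% and 0.202%, against 2.11% in SPGs. These sets held every qualifying cell, while the SPGs were only the highest 200 of the 317 in B0. The 117 qualifying B0 cells beyond rank 200 were also below the SPGs, with Stra8 in 25.6% and a median X-linked share of 1.53%. The percentages of qualifying cells are thus not read as shares of SPGs. At or above the mean value of rank 200 stood 7 cells in each of A0 and A10, 17 in BA10 and 200 in B0. The deposited values are scaled to 10000 per cell, so 1 UMI has a lower value in a deeper cell, while a deeper cell more often holds at least 1 UMI of a gene. Thinned to 2900 UMIs, the conditions were met by 34 A0 cells (0.380%), 24 A10 cells (0.248%), 237 B0 cells (5.09%) and 41 BA10 cells (1.09%). Only 1 of the 200 SPGs reached the 9013 UMIs at which BA10 begins and 5 the 6716 UMIs at which A10 begins, so a cell with the depth of nearly any SPG would not have been in the other 3 libraries. The plot of score against depth shows the 4 lower limits and the cells that met the conditions.

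**Figure D5:**
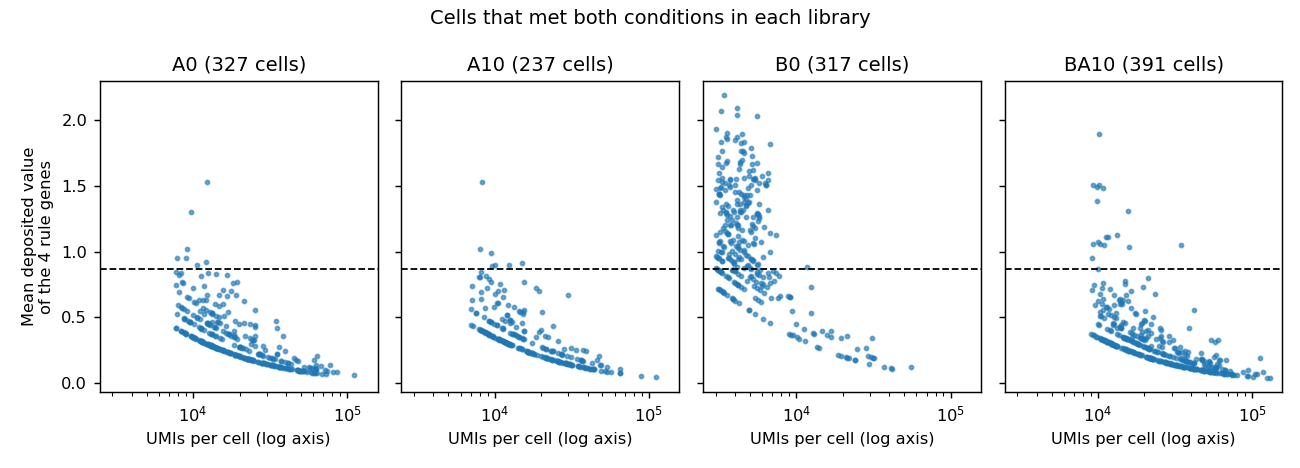
Each point is a cell that met both conditions in A0, A10, B0 or BA10, placed by its UMIs (horizontal, log axis) and the mean deposited value (natural log) of the 4 rule genes (vertical); the dashed line is the value of rank 200. In B0 the cells above the line lie between 2998 and 11785 UMIs, and 1 of the 200 reaches the 9013 UMIs at which BA10 begins.

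The few cells of the other libraries above that value also carried spermatogonial genes. Stra8 stood at 85.0 CPM (31.2 to 185) in the 7 cells of A0, 96.2 CPM (38.7 to 198) in the 7 of A10 and 368 CPM (291 to 460) in the 17 of BA10, against 575 CPM in the SPGs of B0. It was detected in 57.1%, 42.9% and 94.1% of these cells of A0, A10 and BA10, beside 78.0% of SPGs. Crabp1 stood at 213, 192, 364 and 230 CPM, and Zbtb16 at 42.5, 41.2, 37.8 and 146 CPM, in the order A0, A10, BA10 and B0. These values stand side by side with no comparison, since each group was 1 library and the score that chose the cells depends on depth. Ldhc was at 3019, 4190 and 2629 CPM in these cells of A0, A10 and BA10 and at 231 CPM in the SPGs, but it was detected in 100% of all cells of A0, A10 and BA10. Prm1 was at 18284, 12158 and 66.1 CPM in the same cells and at 9.15 CPM in the SPGs. The source of these transcripts of later germ cells was not tested. Over all cells of each library, Stra8 was at 1.27, 1.45, 29.8 and 4.83 CPM in A0, A10, B0 and BA10. In such sums a lower number of SPGs and less RNA per SPG cannot be told apart. The makeup of each library also enters them, with Prm1 at 12309, 16635, 35.0 and 360 CPM over all cells in the same order. So do the different lowest UMI counts, and the part of each was not tested.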

How the data were processed

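Single-cell RNA libraries of seminiferous tubule cells, 1 per treatment (A0, A10, B0 and BA10), were aligned to mm10 and counted with Cell Ranger 2.2.0, per the labels and the methods of the study. The authors kept cells with at least 200 genes and genes found in at least 3 cells, scaled each cell to 10000 UMIs and deposited the natural log of the scaled value plus 1 in 1 table of 18419 genes and 27060 cells. No mitochondrial gene was in the table.

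From the deposited natural log values the whole UMIs of each cell were recovered (100% of values above 0 were whole within 0.001). UMIs were summed over the SPGs, the other B0 cells and the early SPCs, and scaled to CPM. Ratios were log2 with 1 CPM added, and the folds printed are plain ratios of the CPM. Genes entered at 2 CPM over B0, or at 10 CPM over both sets against early SPCs. Genes named without a list were the 15 highest and 10 lowest ratios among genes at 10 CPM or more over B0, and the 10 highest and 10 lowest against early SPCs; other genes belong to the lists described. Rule genes and Insl3 were left out of lists. Sums were given exact Poisson, shares exact binomial (Clopper-Pearson) and ratios exact conditional binomial 95% intervals, which cover counting error only. A level of 0 was given the limit of 3 counts. Shares at equal depth came from cells thinned to 2900 UMIs, which kept every cell. Cells were not clustered, no doublet caller was run and doublets were kept. The members and lists were chosen with earlier results of these data known. With 1 library per group no test between groups was run. Chromosomes were taken for 17546 symbols by name, and promoters from RefSeq (GRCm38.p6). The scripts were tested on simulated counts. Alternatives were another pseudocount, filter, scaling, rule, depth limit and comparison set. Python 3.11.15, numpy 2.4.6, scipy 1.17.1 and pandas 2.3.3 were used.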

Additional observations from a re-analysis of the deposited data

Results flagged for a closer look

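The share of cells that met both conditions moved in opposite directions with AOS in the mice without and with busulfan. Without busulfan it was 3.66% in A0 and 2.45% in A10, a difference of −1.21 percentage points, and with busulfan 6.80% in B0 and 10.3% in BA10, a difference of 3.55 points, so that the changes lay 4.75 points apart. With 1 library per group this difference was not tested. Among cells of at least 9013 UMIs, the lowest count in BA10, the differences were −0.701 and 0.974 points (1.68 points apart). Of the 42 B0 cells that met the conditions at that limit, 1 was an SPG. Most qualifying cells of A0, A10 and BA10 were also unlike the SPGs, as given above, so these shares are not read as shares of SPGs. After thinning to 2900 UMIs they were −0.132 and −4.0 points, so the change with AOS in busulfan-treated mice had the opposite sign and the changes lay −3.87 points apart. The 4 libraries began at different UMI counts. They also differed in makeup, with 30.6% of B0 cells below the Insl3 limit, 98.4% of BA10 cells and 100% of A0 and A10 cells. The shares above are of all cells of a library, most of which could not qualify in B0. The part of the lowest counts and of the makeup in the shares was not tested.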

How the results depend on the processing

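No paired analysis was possible because each group was 1 library. With 10 CPM added, 1914 genes were higher and 1952 lower, and the medians of the undifferentiated and differentiating lists were 1.08 and 1.93. With every cell that met both conditions, 1879 were higher and 1952 lower, and the medians were 1.45 (undifferentiated), 2.43 (differentiating), 1.40 (early prophase), 0.33 (pachytene, turned) and 0.23 (spermatids, turned). With at least 3 of the 4 rule genes, 2238 were lower and the medians were −0.47 (pachytene), −0.02 (spermatids) and −0.33 (Sertoli cells, turned). Against only other cells below the Insl3 limit they were 2.62 (differentiating), −0.20 (early prophase, turned), −3.28 (pachytene) and −0.11 (Leydig cells). With the mean over cells the pachytene median was −1.17 and that of Sertoli cells −0.01 (turned), and with 100 members −3.06 and −0.41 (turned). In cells of 5000 UMIs or more the medians were −2.73 (Leydig cells), 0.70 (Sertoli cells) and 0.38 (macrophages, turned). Leaving out the last 50 ranks, an alternative chosen after seeing the data, gave −0.34 for Sertoli cells (turned). Without thinning, Stra8, Zbtb16, Sycp1 and Ldhc were in 78.0%, 41.5%, 78.5% and 44.5% of SPGs. The percent of cells meeting the conditions in A0, A10, B0 and BA10 was 0.380, 0.134, 3.33 and 1.59 with 3 of the 4 genes and 0.380, 0.248, 5.09 and 1.09 after thinning, and at 9013 UMIs or more it was 3.11 in A10 and 9.38 in B0. The cause of these shifts was not tested. The other 93 alternatives of these answers stayed within their limits (1.5 times for a count, the spread or interval for a value), as did 163 for the other lists. For those lists 34 alternatives moved a median and 1 was counted as turning it. The p53 median given above also changed sign against only the other cells below the Insl3 limit. A gene at 0 in the SPGs could be at up to 3.43 CPM.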

Other observations

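Some SPGs held a large number of UMIs of a gene that was rare elsewhere in the library, a measure whose limits were set after the data were seen. After thinning to 2900 UMIs, 24 of 200 SPGs (12.0%, 7.84 to 17.3) held at least 10 UMIs of 1 gene that stood at 30 CPM or less over B0. The same was true of 1.59% (1.25 to 2.0) of the other B0 cells, 4.0% (1.74 to 7.73) of early SPCs and 5.98% of the cells ranked 201 to 317. SPGs held only 874718 of the 25323535 UMIs of B0. A gene confined to them could thus pass the 30 CPM limit at a higher level than a gene of the larger set of other cells. The shares of these 2 sets are therefore not on equal terms. At 5 UMIs the shares were 29.5% (23.3 to 36.3) in SPGs, 8.32% in other cells, 17.5% in early SPCs and 24.8% (17.3 to 33.6) in ranks 201 to 317, so the intervals of SPGs and of the cells ranked next overlapped. At 20 UMIs they were 7.0%, 0.381%, 1.00% and 1.71%. The 25 events in SPGs lay in 16 genes. Ptcra had 4 of them, and Alox8, Irgm1, Pbld1, Pla2g4b, Rnf168 and Xaf1 had 2 each. Xaf1, an apoptosis factor, gave 113 of its 158 UMIs in 1 SPG. Pbld1 was more evenly spread, with 62 of its 182 UMIs in 1 cell and 49 SPGs holding it.

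Red cell transcripts were also uneven. In 1 SPG lay 448 of the 608 UMIs of Hbb-b1 and 408 of the 508 UMIs of Hba-a1, the adult globin genes, although Hbb-b1 was detected in 104 SPGs. Without that cell the level of Hbb-b1 in SPGs was 183 CPM and that of Hba-a1 114 CPM. These genes were named after their values were seen.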
